A study of Mus musculus with 12 samples.

Results

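Enteroendocrine cells are the hormone-secreting cells of the gut lining, and 35 genes that mark them were followed in the mouse colonic epithelium with and without the transcription factor gene Ehf. The members were chosen by symbol from a list of gut hormones, granule proteins and lineage factors. Earlier results of these data were known when the list was made. All 35 were found among the 55304 gene symbols of the count tables. They comprised 6 granins and granule proteins, 3 prohormone processing enzymes, 8 peptide hormones, 4 genes of serotonin-making enterochromaffin cells, 11 lineage transcription factors and 3 vesicle or surface proteins. The 12 libraries came from colonic epithelial RNA of C57BL/6 mice that were 6 weeks old, and the labels divided the animals into 3 groups of 4. Control-OIL mice carried source names beginning with EVCER, were labelled wild-type and received sunflower oil. Control-TMX mice carried source names beginning with VilCreER, were labelled wild-type and received tamoxifen, and the series text describes such Villin CreERT2 animals as an added control for effects of tamoxifen. EHF IKO mice carried EVCER source names, were labelled as intestinal knockouts of Ehf and received tamoxifen. The Villin promoter drives the tamoxifen-activated Cre recombinase in intestinal epithelial cells, so the deletion is aimed at the epithelium as a whole and not at hormone cells. Neither control shared both line and treatment with EHF IKO, so 4 comparisons were made: EHF IKO with each control, EHF IKO with the mean of both, and Control-TMX with Control-OIL.

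Enteroendocrine cells are scattered singly through the epithelium and arise from secretory progenitors that switch on the basic helix-loop-helix factor gene Neurog3, followed by Neurod1 and other factors that select the hormone made. Their products are packed with granins into dense-core granules, cut to active peptides by prohormone convertases and released towards the blood and nerves. In the colon the main kinds are enterochromaffin cells, which make serotonin, and L cells, which make the glucagon-like peptides, peptide YY and insulin-like peptide 5. In RNA from whole epithelium, fewer cells of a type and less RNA per cell cannot be told apart.

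The libraries held 7421411 to 10344161 counted reads. Levels are in CPM, the counts of a gene scaled to a common library size with the TMM factors of edgeR. Where 3 values stand without a name, they belong to Control-OIL, then Control-TMX, then EHF IKO, and group values are the mean ± SD of 4 mice. A single edgeR quasi-likelihood fit of all 12 libraries gave the log2 fold changes, each with its SE, and a gene was called where its p, adjusted over the 15743 genes tested, was under 0.05. Summed over all its exons, Ehf was at 428 ± 46.4, 345 ± 21.0 and 341 ± 30.1 CPM, and its log2 fold changes were -0.33 ± 0.11 relative to Control-OIL (edgeR adjusted p = 0.159) and, relative to Control-TMX, -0.02 ± 0.11 (adjusted p = 0.972). Whole-gene counts do not measure a deletion within the gene, so they did not check the knockout label. Xist was high in replicates 1 and 2 of every group and low in replicates 3 and 4, so each group held both sexes. EHF IKO replicate 2 stood apart: 10 genes, each at least 20 times above its highest level in the other 11 libraries and at no less than 200 CPM, took 10.4% of its counts and at most 0.114% elsewhere. The members' medians and calls, and the fold changes of Chga against each control and of Tac1 against Control-OIL, are also given without it. The levels and fold changes of genes outside the members, and all sums, include it.

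Per kilobase of exon, the granin genes Chgb and Chga and the L-cell peptides were the most abundant members over the 12 libraries. The other granins were lower. In Control-OIL, Chgb was at 29.5 ± 8.65, Pyy at 28.5 ± 5.85, Chga at 22.9 ± 4.19, Gcg at 18.3 ± 8.10, Insl5 at 13.9 ± 4.54, Ddc at 10.3 ± 2.44 and Sct at 6.31 ± 1.91 CPM per kilobase. No neighbours among these 7 were further apart than their SDs added together, so their order within Control-OIL is not fixed by these mice. Control-TMX placed Chga at 35.5 ± 4.42, Chgb at 35.1 ± 4.02 and Pyy at 27.8 ± 3.83 CPM per kilobase, and the step from Pyy down to Gcg, at 14.0 ± 6.74, exceeded both SDs. In EHF IKO Pyy came first at 27.1 ± 4.63 CPM per kilobase, before Chgb at 22.8 ± 5.39, Chga at 16.9 ± 1.70 and Ddc at 14.1 ± 1.83. The lineage factors lay far lower: their highest mean in Control-OIL was 1.24 ± 0.242 CPM per kilobase, for Insm1.

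**Figure D1:**
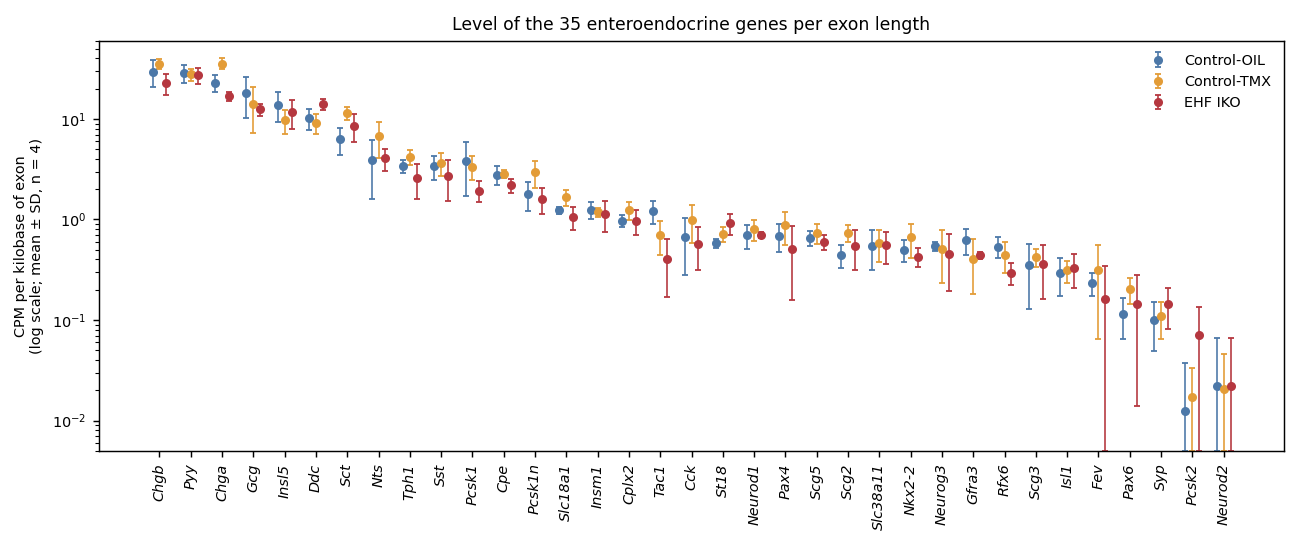
Mean level of each of the 35 members in CPM per kilobase of exon on a log axis, with a colour per group, and bars of 1 SD over 4 mice. Bars that reach below the axis are drawn to its lower edge. Chgb, Pyy and Chga lie at the top in all 3 groups, and Neurod2 and Pcsk2 at the bottom.

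Of the 35 members, 26 had enough counts to be tested. The filter keeps a gene that is high enough in any 1 group, so the tested members are not a sample of all 35. Against Control-OIL 1 member was called, Tac1, which was lower, while 1.68% of all genes tested were called, 0.921% higher and 0.762% lower. Of the 26, 17 had values below Control-OIL and 9 above, with a median log2 fold change of -0.13 beside -0.01 over all genes. Against Control-TMX 1 member was called, Chga, which was lower, beside 0.800% of all genes (0.330% higher, 0.470% lower), and 22 members lay below and 4 above, with a median of -0.43 beside 0.02 over all genes. Against the mean of both controls Chga was again the 1 call, beside 1.72% of all genes (0.858% in each direction), with 22 members below, 4 above and a median of -0.25 beside 0.01. At an unadjusted p under 0.05, 4 of the 26 were below and 2 above Control-OIL, beside 5.07% and 6.85% of all genes. By the same measure 7 were below and 1 above Control-TMX, beside 6.27% and 5.60%, and 8 below and 2 above the mean, beside 5.32% and 6.28%. These comparisons share the EHF IKO libraries and, in part, the controls, so they are not separate counts. Without EHF IKO replicate 2 the median became -0.26, -0.54 and -0.40 in the same order, and the calls were Tac1 against Control-OIL, Chga against Control-TMX, and both against the mean.

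In Control-TMX against Control-OIL edgeR called none of the 26 tested members, beside 0.0826% of all genes (0.0381% higher, 0.0445% lower), while DESeq2 called 1, Chga. Of the 26, 18 were above Control-OIL and 8 below, with a median log2 fold change of 0.23 beside -0.01 over all genes. At an unadjusted p under 0.05 there were 6 members above and 1 below, beside 6.65% and 6.23% of all genes. These values stand beside those of EHF IKO against Control-TMX because both comparisons use the Control-TMX libraries. A high Control-TMX level therefore enters both. EHF IKO and Control-TMX both received tamoxifen and differ in line and in Ehf label. How much of their distance goes with either cannot be told apart from these groups. Control-TMX and Control-OIL differ in line and in tamoxifen, which cannot be told apart either.

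**Figure D2:**
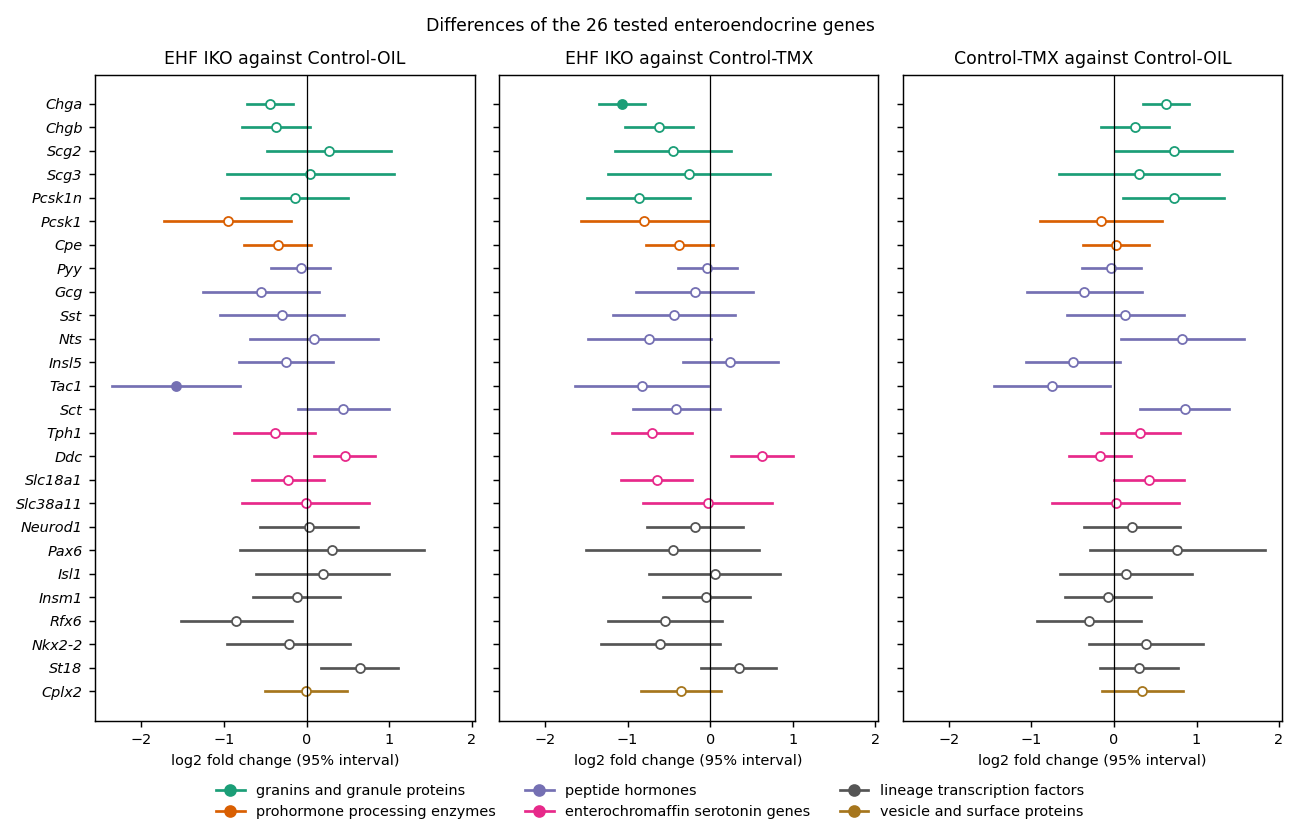
Log2 fold changes of the 26 tested members in EHF IKO against each control and in Control-TMX against Control-OIL. Bars give the 95% confidence interval, and points are filled where the edgeR adjusted p was under 0.05. Filled points are those of EHF IKO for Tac1 against Control-OIL and for Chga against Control-TMX.

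The granins are acidic proteins that help form dense-core granules, and Chga, chromogranin A, is the general marker of enteroendocrine cells. Chga (ENSMUSG00000021194, chromosome 12, 102554969 to 102565028, plus strand, GRCm38) was at 78.8, 65.0, 55.0 and 53.9 CPM in Control-OIL, 104, 112.1, 86.3 and 89.4 CPM in Control-TMX, and 49.5, 49.3, 47.8 and 39.6 CPM in EHF IKO. With TMM scaling the 3 groups did not overlap: all 4 EHF IKO libraries lay below all 8 controls, and all 4 Control-TMX libraries above Control-OIL. Without TMM scaling, EHF IKO replicate 1 (54.5 CPM) lay above Control-OIL replicate 3 (52.9 CPM). On the TMM scale Chga was the 1 member with EHF IKO below every control library, beside 1.23% of all 15743 genes tested. For every other separation between groups, here and below, the share of all genes was not counted. It fell by 1.07 ± 0.13 on the log2 scale against Control-TMX (95% interval -1.35 to -0.79, edgeR adjusted p = 0.00125) and by 0.76 ± 0.12 against the mean of both controls (interval -1.004 to -0.51, adjusted p = 0.00327). Against Control-OIL its log2 fold change was -0.44 ± 0.13 (interval -0.72 to -0.16, adjusted p = 0.123), which did not pass. Between the controls it was 0.63 ± 0.13 higher in Control-TMX (adjusted p = 0.114). With TMM scaling Chga was also higher in replicates 1 and 2 than in replicates 3 and 4 of each group. Without it Control-TMX 1, at 87.7 CPM, lay below Control-TMX 3, at 94.0 CPM. With sex read from Xist as a term, the fall against Control-OIL was 0.43 (edgeR adjusted p = 0.0378) and the Control-TMX difference 0.64 (adjusted p = 0.0135). Without EHF IKO replicate 2 the log2 fold change was -1.10 against Control-TMX (adjusted p = 0.00461) and -0.47 against Control-OIL (adjusted p = 0.206).

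The stretch of 250 bases before the RefSeq start of Chga is shown because Chga is the member whose groups were fully separate with TMM scaling. Capitals mark the E-box letters CANNTG, the kind read by the helix-loop-helix factors of this lineage, and the letters TGACGT, the core of cyclic AMP response elements. The window is chr12:102554691-102554940 on the plus strand of GRCm38.p6, and it holds 3 CANNTG matches and 1 TGACGT match, the first base of the latter 44 bases before the start.
Chga: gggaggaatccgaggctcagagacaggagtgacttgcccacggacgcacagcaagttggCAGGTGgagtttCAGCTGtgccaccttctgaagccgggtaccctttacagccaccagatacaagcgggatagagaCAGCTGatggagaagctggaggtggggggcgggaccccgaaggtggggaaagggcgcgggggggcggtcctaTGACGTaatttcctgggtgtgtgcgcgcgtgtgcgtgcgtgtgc
RefSeq promoters were matched by symbol for 29 of the 35 members, with 34 promoters in all. Searched on both strands over 250 bases before each start, CANNTG was present in 67.6% of the members' promoters and 66.2% of all 32851 in the table. The ETS letters CCGGAA were present in 5.88% of the members' promoters, those of Gcg and Neurog3, and in 12.03% of all. TGACGT was present in 29.4% of the members' promoters and 6.47% of all. The genes with it were Chga, Chgb, Scg2, Scg5, Pcsk1, Sst, Pax6, Isl1 and Neurod2. TGACGT was searched after the Chga sequence had been seen, and a match is a run of letters and not a bound site.

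Chgb, chromogranin B, was at 113.5, 83.5, 64.0 and 62.7 CPM in Control-OIL, 102, 86.8, 87.1 and 108.6 CPM in Control-TMX, and 62.3, 80.0, 63.9 and 43.9 CPM in EHF IKO. Every EHF IKO library lay below every Control-TMX library, and the EHF IKO and Control-OIL ranges overlapped. The log2 fold change was -0.62 ± 0.19 against Control-TMX (edgeR adjusted p = 0.204), -0.37 ± 0.20 against Control-OIL (adjusted p = 0.505) and 0.25 ± 0.19 between the controls (adjusted p = 0.616). Of the other granule members tested, Pcsk1n, which encodes the convertase inhibitor proSAAS, was at 3.91 ± 1.22, 6.45 ± 1.94 and 3.51 ± 1.01 CPM. Scg2, secretogranin II, was at 1.11 ± 0.288, 1.85 ± 0.355 and 1.38 ± 0.583 CPM, with all Control-TMX libraries above all of Control-OIL. Scg3, secretogranin III, was at 0.963 ± 0.609, 1.16 ± 0.229 and 0.987 ± 0.543 CPM. All 5 tested granule members were below Control-TMX in EHF IKO, with a median log2 fold change of -0.62. All 5 were above Control-OIL in Control-TMX, with a median of 0.63, while in EHF IKO 3 were below and 2 above Control-OIL, with a median of -0.14. Chga was the 1 call among these.

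Pcsk1 and Cpe act in turn on prohormones, the first as an endoprotease and the second by trimming the basic residues left behind. Pcsk1 was at 33.0, 29.1, 10.7 and 11.9 CPM in Control-OIL, 12.6, 16.8, 21.8 and 23.8 CPM in Control-TMX, and 13.9, 11.9, 9.58 and 8.06 CPM in EHF IKO. The Control-OIL libraries split into a high pair and a low pair, and the EHF IKO range reached into both controls. Its log2 fold change was -0.96 ± 0.36 relative to Control-OIL (edgeR adjusted p = 0.262) and, relative to Control-TMX, -0.80 ± 0.36 (adjusted p = 0.402). Cpe was at 8.24, 8.30, 4.97 and 7.60 CPM in Control-OIL, 8.23, 6.67, 7.52 and 7.29 CPM in Control-TMX, and 6.64, 4.97, 6.25 and 4.97 CPM in EHF IKO. All EHF IKO libraries of Cpe lay just below Control-TMX, and the fold change against the mean of both controls was -0.36 ± 0.17 (adjusted p = 0.422). Neither enzyme was called in any comparison.

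Among the peptide hormones, Tac1 was the 1 gene called, while the L-cell peptides Pyy and Insl5 had EHF IKO means within 1 SD of each control mean. Of the 7 tested hormone genes, 5 were below Control-OIL in EHF IKO and 6 below Control-TMX, with medians of -0.25 and -0.41. Between the controls, 3 were above and 4 below, with a median of -0.03.

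Tac1 encodes the precursor of substance P and neurokinin A, made in the gut by enterochromaffin cells and by enteric neurons. Tac1 (ENSMUSG00000061762, chromosome 6, 7554879 to 7565834, plus strand) was at 5.73, 3.65, 3.31 and 3.85 CPM in Control-OIL, 1.55, 2.35, 2.01 and 3.65 CPM in Control-TMX, and 1.40, 2.48, 0.798 and 0.806 CPM in EHF IKO. All EHF IKO libraries lay below Control-OIL, and the Control-TMX values overlapped both EHF IKO and Control-OIL. It fell by 1.58 ± 0.36 on the log2 scale against Control-OIL (95% interval -2.35 to -0.81, edgeR adjusted p = 0.0387). The log2 fold change was -0.83 ± 0.38 against Control-TMX (adjusted p = 0.403), -1.20 ± 0.33 against the mean of both (adjusted p = 0.0917) and -0.75 ± 0.33 between the controls (adjusted p = 0.364). The call against Control-OIL was lost in a fit of those groups alone (adjusted p = 0.0757) and without any 1 of Control-OIL 1, 2, 3 or 4, Control-TMX 2 or 3, or EHF IKO 1 or 3 (up to 0.134), and kept without EHF IKO 2, at -2.01 (adjusted p = 0.0223). Of 12 enteric neuron markers 4 could be tested and edgeR called none against Control-OIL, with 1 above and 1 below at an unadjusted p under 0.05. Their summed level was 8.19 to 13.6, 13.0 to 15.6 and 7.12 to 18.9 CPM in the 3 groups, with the highest value in EHF IKO replicate 2, the EHF IKO library with the most Tac1. The part of neurons in the Tac1 levels was not tested.

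The Gcg start region and a part of that of Tac1 are shown to set the L-cell hormone gene beside the called one. Capitals mark CANNTG and, on either strand, CCGGAA. The Gcg window is chr2:62483654-62483903 on the minus strand of GRCm38.p6, read 5′ to 3′ along the gene, with 1 CCGGAA match, here on the other strand, and 3 CANNTG matches, 2 of which are CAGATG. For Tac1 only the part of the window outside annotated exons is shown, chr6:7554811-7554878 on the plus strand. That part is the farthest from the RefSeq start, and it holds none of the letters searched. The full Tac1 window, used for the percentages, holds 2 CANNTG matches and 1 CAGATG match, so the bases shown do not compare Tac1 with Gcg.
Gcg: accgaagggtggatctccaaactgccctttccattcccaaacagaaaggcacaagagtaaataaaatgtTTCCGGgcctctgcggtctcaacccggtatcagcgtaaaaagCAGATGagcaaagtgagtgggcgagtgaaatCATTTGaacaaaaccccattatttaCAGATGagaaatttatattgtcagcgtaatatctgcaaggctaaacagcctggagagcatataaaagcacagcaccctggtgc
Tac1: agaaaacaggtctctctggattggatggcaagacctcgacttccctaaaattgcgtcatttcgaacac
CAGATG was present in 20.6% of the members' promoters and 14.4% of all promoters in the table.

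Gcg encodes proglucagon, the source of the glucagon-like peptides of L cells. It was at 45.3, 23.5, 19.1 and 21.4 CPM in Control-OIL, 11.96, 15.3, 21.7 and 34.8 CPM in Control-TMX, and 19.8, 21.3, 15.2 and 18.1 CPM in EHF IKO. Single libraries stood high in both controls, and the EHF IKO values fell inside both ranges or below Control-OIL. Its log2 fold change was -0.55 ± 0.33 against Control-OIL (95% interval -1.25 to 0.16, edgeR adjusted p = 0.578) and -0.19 ± 0.33 against Control-TMX (interval -0.90 to 0.52, adjusted p = 0.879). Without Control-OIL 1 the first became -0.20, and without Control-TMX 4 the second turned to 0.18. Pyy, the gene of peptide YY, was at 22.4, 13.4, 17.6 and 18.7 CPM in Control-OIL, 17.9, 15.8, 15.7 and 20.8 CPM in Control-TMX, and 13.9, 16.1, 17.7 and 20.8 CPM in EHF IKO. The groups overlapped almost fully, and the interval of the Pyy log2 fold change was -0.43 to 0.29 against Control-OIL and -0.40 to 0.32 against Control-TMX. Insl5, an L-cell peptide of the distal colon, was at 13.0, 6.20, 8.41 and 12.5 CPM, then 5.13, 7.17, 6.25 and 9.63 CPM, then 6.29, 7.45, 7.72 and 12.4 CPM. Its ranges overlapped too, with intervals of -0.82 to 0.32 against Control-OIL and -0.34 to 0.82 against Control-TMX. Intervals of this width leave changes of up to about these sizes unmeasured, in either direction.

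Nts and Sct had their highest values in Control-TMX. Nts, the neurotensin gene, was at 9.08, 3.65, 3.57 and 3.06 CPM in Control-OIL, 8.54, 4.70, 7.73 and 12.6 CPM in Control-TMX, and 5.47, 6.35, 5.06 and 3.36 CPM in EHF IKO. The log2 fold change was -0.74 ± 0.35 against Control-TMX (edgeR adjusted p = 0.428), 0.09 ± 0.37 against Control-OIL (adjusted p = 0.965) and 0.83 ± 0.35 between the controls (adjusted p = 0.341). Sct, the secretin gene, was at 5.59, 4.54, 3.18 and 2.96 CPM in Control-OIL, 7.92, 8.65, 6.14 and 6.73 CPM in Control-TMX, and 6.76, 7.18, 3.99 and 4.03 CPM in EHF IKO. All Control-TMX libraries of Sct lay above Control-OIL, with a difference of 0.86 ± 0.25 (adjusted p = 0.215), and EHF IKO overlapped both. In each group the TMM-scaled Sct level was higher in replicates 1 and 2 than in 3 and 4. Sst, the somatostatin gene of D cells, was at 2.44 ± 0.662, 2.63 ± 0.701 and 1.97 ± 0.869 CPM, and its groups overlapped.

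**Figure D3:**
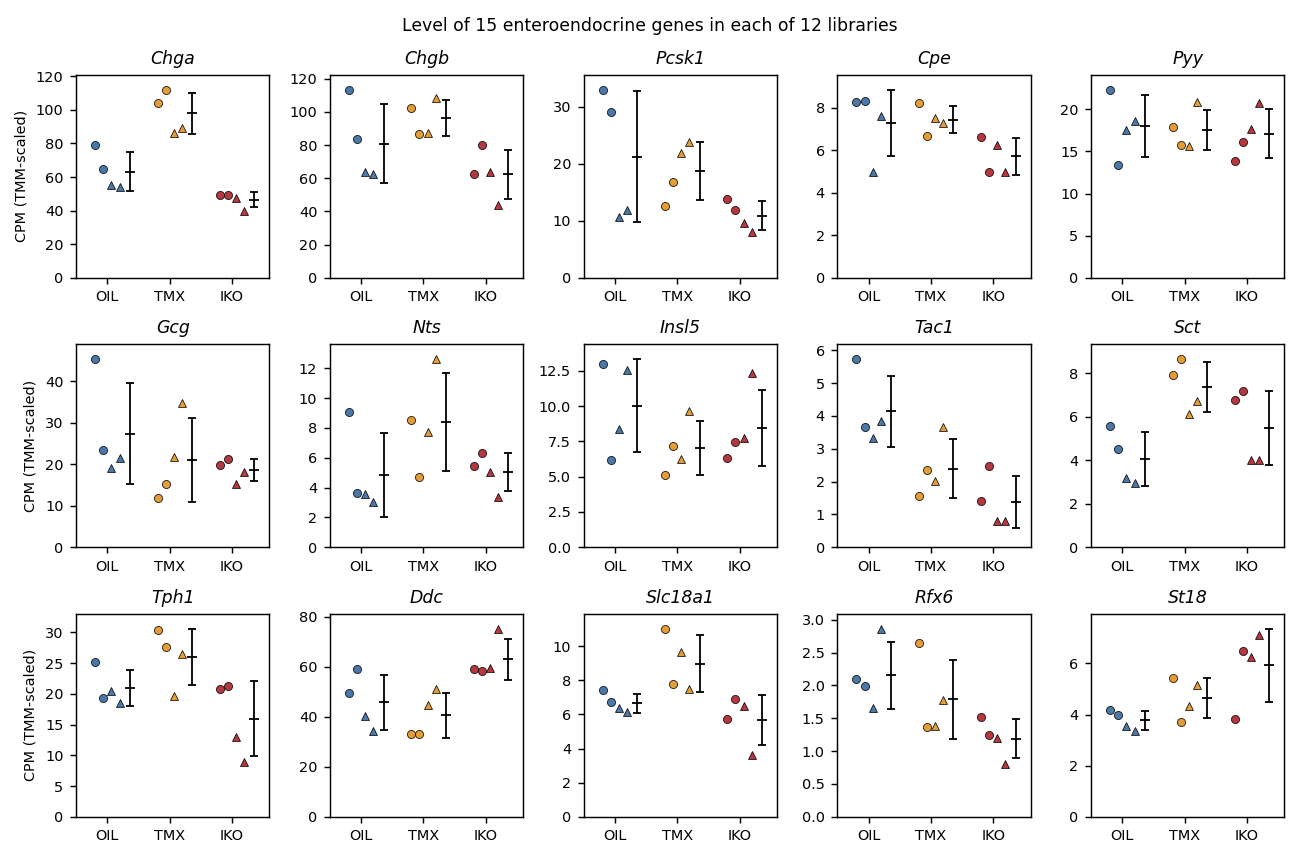
Level in CPM of the 15 members given by library, with a point for each of 4 mice per group (circles for replicates 1 and 2, triangles for 3 and 4) and the group mean with 1 SD. The EHF IKO points of Chga lie below all control points, at 39.6 to 49.5 CPM, and those of Ddc above all Control-TMX points, at 58.4 to 75.2 CPM.

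None of the 4 serotonin genes was called by edgeR in any comparison, and against Control-TMX 2 were below and 1 above at an unadjusted p under 0.05. Tph1 encodes the enzyme that sets the rate of serotonin synthesis in enterochromaffin cells. It was at 25.2, 19.4, 20.5 and 18.6 CPM in Control-OIL, 30.4, 27.6, 19.7 and 26.5 CPM in Control-TMX, and 20.7, 21.3, 12.9 and 8.87 CPM in EHF IKO. EHF IKO replicates 3 and 4 lay below all controls and replicates 1 and 2 inside their range, and the log2 fold change was -0.70 ± 0.23 against Control-TMX (edgeR adjusted p = 0.217) and -0.38 ± 0.23 against Control-OIL (adjusted p = 0.573). Slc18a1, the vesicular monoamine transporter that loads serotonin into granules, was at 7.41, 6.75, 6.37 and 6.12 CPM, then 11.03, 7.79, 9.64 and 7.48 CPM, then 5.71, 6.90, 6.52 and 3.63 CPM. Its Control-TMX libraries lay above all 8 others, and the share of all genes that separate in this way was not counted. The log2 fold change of EHF IKO against Control-TMX was -0.65 ± 0.20 (edgeR adjusted p = 0.192). Slc38a11, an amino acid transporter gene, was at 2.38 ± 1.03, 2.50 ± 0.871 and 2.41 ± 0.864 CPM.

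Ddc encodes the aromatic amino acid decarboxylase that completes serotonin synthesis, an enzyme that absorptive epithelial cells also express. It was at 49.6, 59.1, 40.1 and 34.3 CPM in Control-OIL, 33.2, 33.0, 44.8 and 51.2 CPM in Control-TMX, and 58.9, 58.4, 59.3 and 75.2 CPM in EHF IKO. All EHF IKO libraries lay above Control-TMX, and 1 Control-OIL library reached into their range. The log2 fold change was 0.63 ± 0.18 against Control-TMX (edgeR adjusted p = 0.138), 0.46 ± 0.17 against Control-OIL (adjusted p = 0.260) and 0.54 ± 0.15 against the mean of both (adjusted p = 0.0895), so Ddc was not called. It passed against the mean without Control-OIL 2 and without Control-TMX 4. The 8 colonocyte markers, which stand for absorptive cells, summed to 4544 ± 1296, 6142 ± 509.6 and 6401 ± 1317 CPM. All 8 were above Control-OIL in EHF IKO, with Krt20, a keratin gene of mature colonocytes, called (0.71 ± 0.17, adjusted p = 0.0438), and against Control-TMX 5 were above and 3 below, with none called and 0 at an unadjusted p under 0.05. The part of absorptive cells in the Ddc level was not tested.

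Of 11 lineage factors 7 could be tested, and edgeR called none in any comparison. Against the mean of both controls 2 were above and 5 below, 1 in each direction at an unadjusted p under 0.05, with a median log2 fold change of -0.08. Rfx6, a winged-helix factor needed for endocrine differentiation, was at 2.10, 1.99, 1.66 and 2.86 CPM in Control-OIL, 2.64, 1.36, 1.38 and 1.78 CPM in Control-TMX, and 1.51, 1.24, 1.20 and 0.806 CPM in EHF IKO. Every EHF IKO library of Rfx6 lay below Control-OIL, with -0.85 ± 0.32 (edgeR adjusted p = 0.244), and 1 lay above the lowest of Control-TMX, with -0.55 ± 0.32 (adjusted p = 0.550). St18, a zinc finger factor gene, ran the other way, at 4.19, 3.98, 3.57 and 3.36 CPM, then 5.44, 3.71, 4.34 and 5.14 CPM, then 3.84, 6.49, 6.25 and 7.12 CPM. EHF IKO held the 3 highest St18 values and 1 within the controls, with a difference of 0.65 ± 0.22 from Control-OIL (edgeR adjusted p = 0.189) and of 0.34 ± 0.22 from Control-TMX (adjusted p = 0.579). Neurod1, which acts downstream of Neurog3, was at 1.90 ± 0.514, 2.18 ± 0.510 and 1.91 ± 0.128 CPM, and Insm1, a zinc finger repressor, at 3.86 ± 0.751, 3.66 ± 0.342 and 3.53 ± 1.22 CPM. Isl1 was at 1.16 ± 0.475, 1.23 ± 0.310 and 1.30 ± 0.476 CPM, and Nkx2-2 at 1.44 ± 0.350, 1.91 ± 0.707 and 1.23 ± 0.272 CPM, both homeodomain factors of the endocrine lineage. Pax6, a paired-box factor, was at 1.35 ± 0.596, 2.37 ± 0.677 and 1.70 ± 1.54 CPM, with EHF IKO replicate 2 at 3.86. Cplx2, complexin 2 of the vesicle fusion machinery, was at 4.81 ± 0.622, 6.10 ± 1.27 and 4.78 ± 1.33 CPM and was not called.

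**Figure D4:**
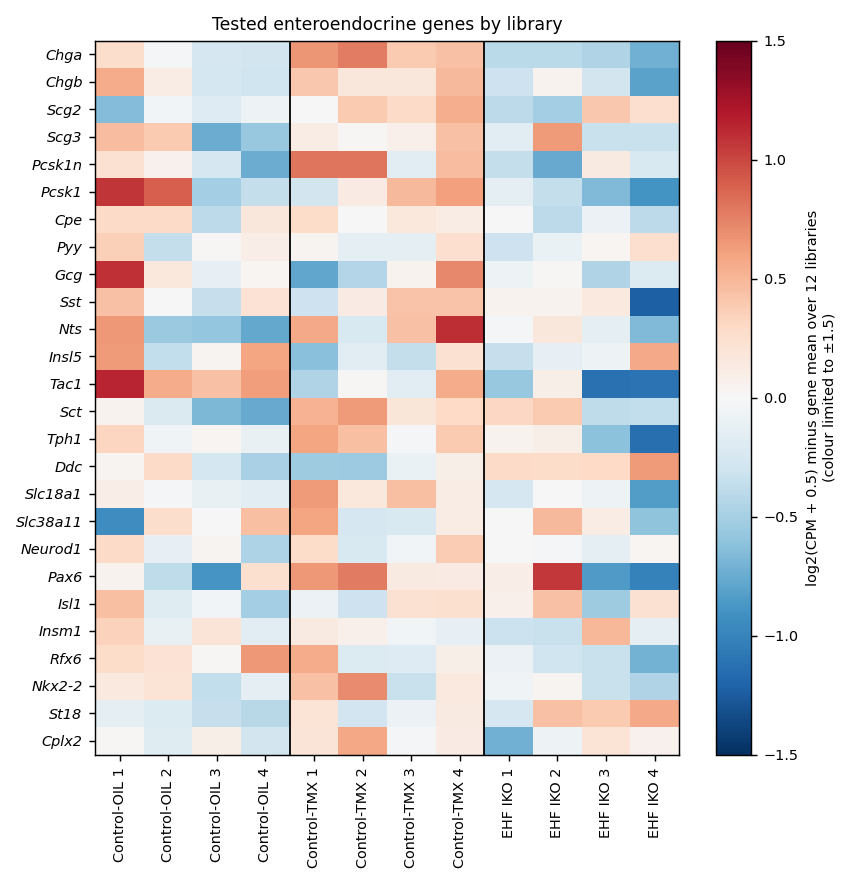
Log2 of CPM plus 0.5 for the 26 tested members in each of the 12 libraries, centred on the mean of the member, with the colour limited at both ends as marked. Control-TMX replicate 4 has 25 of the 26 members above their own median, and in EHF IKO the number runs from 7 to 13.

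The remaining 9 members were too low to test, with 6 to 104 counts over all 12 libraries and no more than 19 in any 1. They included Neurog3, the master factor of the lineage, with 31, 28 and 23 counts in the 3 groups, and Pax4, a factor that favours serotonin and somatostatin cells, with 35, 43 and 23. Cck, the cholecystokinin gene, had 29, 45 and 23 counts, Scg5, a convertase chaperone gene, had 35, 40 and 29, and Gfra3, a receptor subunit gene of the GDNF family, had 44, 30 and 27. Fev, a factor of serotonin-making cells, had 13, 16 and 8 counts and Syp, synaptophysin, 18, 20 and 23. Pcsk2, a convertase more typical of pancreatic islets, had 4, 4 and 17 counts, and Neurod2 2, 2 and 2. At this depth differences in these genes were not detectable. For 6 members some exon bases are shared with another gene, from 4.54% in Pcsk2 to 16.8% in Syp, and reads there were left out of the counts.

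Summed over the 35 members, the level was 458, 365, 291 and 293 CPM in Control-OIL, 405, 392, 374 and 449 CPM in Control-TMX, and 304, 337, 298 and 277 CPM in EHF IKO. EHF IKO lay below Control-TMX in every library and overlapped Control-OIL, in which replicates 1 and 2 were the higher ones. The makeup of the sum differed as well. Chga and Chgb supplied 39.8% to 42.0% of it in Control-OIL, 44.1% to 50.9% in Control-TMX and 30.1% to 38.4% in EHF IKO. These ranges did not overlap. The sum includes Ddc, at 45.8 ± 10.9, 40.6 ± 8.99 and 63.0 ± 8.18 CPM, so the share also depends on Ddc. With Ddc left out of the sum, the EHF IKO and Control-OIL ranges of the share overlap. Without Chga, Chgb and Ddc the sums were 162 ± 37.7, 170 ± 20.1 and 132 ± 13.0 CPM. The number of tested members above their own 12-library median was 19, 12, 6 and 9 of 26 in Control-OIL, 19, 13, 15 and 25 in Control-TMX and 7, 13, 10 and 8 in EHF IKO. The counts of Tac1 per count of Tph1, a ratio within each library, were 0.161 to 0.228 in Control-OIL, 0.0510 to 0.138 in Control-TMX and 0.0619 to 0.117 in EHF IKO, so both tamoxifen-treated groups lay below Control-OIL. The ratio of Chga to Chgb counts was 0.695 to 0.861, 0.823 to 1.29 and 0.616 to 0.902, with overlap between EHF IKO and both controls. These sums and ratios are descriptions without a test.

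**Figure D5:**
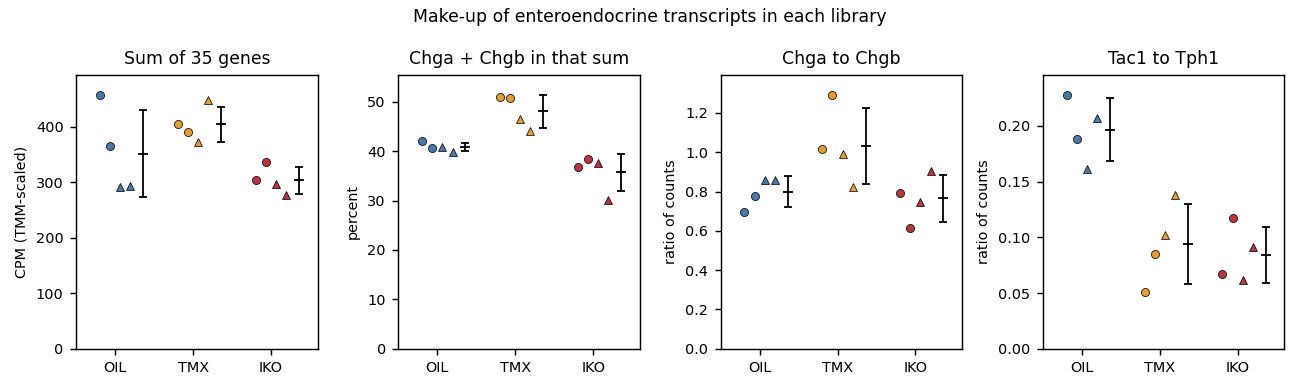
Summed CPM of all 35 members and the share of Chga and Chgb in it, and ratios of counts between members, by library, with the group mean and 1 SD. EHF IKO lies at 277 to 337 CPM in the sum and at 30.1% to 38.4% in the share, the lowest range of the 3 groups for the share. The sum includes Ddc, whose mean was highest in EHF IKO, and the share depends on it.

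Further genes of hormone cells were taken from lists kept apart from the 35. Among 18 other granule and secretion genes, 11 could be tested, and against Control-TMX 9 were below, 2 above and 1 was called, with 7 of those below at an unadjusted p under 0.05, beside 6.27% of all genes. The called gene was Aplp1, an amyloid precursor-like protein gene, at 21.5 ± 3.65, 35.2 ± 3.72 and 18.8 ± 3.59 CPM, which fell by 0.90 ± 0.15 (edgeR adjusted p = 0.0102). Against Control-OIL 7 of the 11 were below and none was called, with 2 of those below under an unadjusted p of 0.05, beside 5.07% of all genes, and Aplp1 was at -0.20 ± 0.15 (adjusted p = 0.716). Between the controls 8 were above, none called and 5 of those above under an unadjusted p of 0.05, beside 6.65% of all genes, and Aplp1 was at 0.71 ± 0.15 (adjusted p = 0.114). Aplp1 thus shared with Chga a high level in Control-TMX. Summed over the 18 genes, the level was 292 to 315 CPM in Control-OIL, 306 to 348 in Control-TMX and 250 to 275 in EHF IKO, with EHF IKO below all controls. Among 12 other lineage factors 10 could be tested and none was called. Against Control-TMX 7 were below and 3 above, with 3 of those below at an unadjusted p under 0.05, beside 6.27% of all genes. Against the mean of both controls 8 were below, with 1 of them at that p, beside 5.32% of all genes. Of 12 nutrient and metabolite sensors 5 could be tested and none was called. Against the mean of both controls 4 were below, 1 of them at an unadjusted p under 0.05. Against Control-TMX 4 were below, with 0 at that p. Of 8 further serotonin genes none was called. Against the mean of both controls 5 were below, with 1 above and 1 below at an unadjusted p under 0.05. The same numbers held against Control-TMX.

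Of 15 receptors for the members' hormones 6 could be tested, and Sstr1, a somatostatin receptor gene, was called in all 3 comparisons with EHF IKO. It was at 13.7 ± 5.87, 19.7 ± 0.854 and 5.87 ± 1.37 CPM and fell by 1.23 ± 0.28 against Control-OIL (edgeR adjusted p = 0.0386), by 1.74 ± 0.28 against Control-TMX (adjusted p = 0.00680) and by 1.49 ± 0.25 against the mean (adjusted p = 0.00721). Its ligand gene Sst, above, was not called. Of 8 factors of secretory precursors, Spdef, an ETS-family factor of goblet cells, was called lower against Control-TMX (-1.04 ± 0.20, adjusted p = 0.0304) and against the mean, and not against Control-OIL (-0.81 ± 0.20, adjusted p = 0.0616).

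Markers of other cell types stand beside these values. All 10 stromal and smooth muscle markers could be tested, and their summed level was 298 to 387 CPM in Control-OIL, 461 to 716 in Control-TMX and 412 to 982 in EHF IKO, with the collagen genes Col1a2 (1.10 ± 0.25, edgeR adjusted p = 0.0445) and Col3a1 (1.05 ± 0.22, adjusted p = 0.0318) called higher in EHF IKO against Control-OIL. Tuft cell markers summed to 58.9 ± 14.7, 62.3 ± 3.74 and 87.0 ± 21.4 CPM, with Dclk1 called higher against the mean (0.72 ± 0.16, edgeR adjusted p = 0.0384). The 8 goblet cell markers, all tested, summed to 30839 ± 7676, 37961 ± 3198 and 32847 ± 4966 CPM. In EHF IKO 6 were above and 2 below Control-OIL, and 7 above and 1 below Control-TMX. The 1 below Control-TMX was at -0.72, with an unadjusted edgeR p under 0.05. Zg16 was called higher against Control-OIL (0.91 ± 0.14, edgeR adjusted p = 0.00436), Control-TMX (0.68 ± 0.14, adjusted p = 0.0350) and the mean. Spink4 was called higher against Control-TMX (0.97 ± 0.20, adjusted p = 0.0384) and the mean (0.75 ± 0.17, adjusted p = 0.0385), and not against Control-OIL (0.53 ± 0.20, adjusted p = 0.271). Leukocyte markers summed to 20.1 to 36.6, 19.0 to 28.5 and 27.0 to 39.3 CPM, and of the 4 tested none was called against the mean, with 1 at an unadjusted p under 0.05. Distal colon HOX genes, which bear on where along the colon a sample was taken, summed to 174 ± 43.0, 146 ± 19.4 and 154 ± 42.5 CPM, with none called in any comparison. All 6 tested HOX genes were below Control-OIL in EHF IKO and in Control-TMX, 1 in each at an unadjusted p under 0.05, while against Control-TMX 4 were above and 2 below in EHF IKO, with 0 at that p. Proliferation markers summed to 747 ± 33.1, 577 ± 231 and 780 ± 169 CPM. Enteric glia markers summed to 427 to 509, 478 to 624 and 442 to 681 CPM, nearly all from Erbb3, while the glial factor Sox10 had 14, 19 and 9 counts. Mast cell markers summed to 51.3 to 99.5, 61.4 to 79.3 and 65.9 to 80.6 CPM, most of it from Kit, with the protease gene Cma1 called higher in EHF IKO against Control-OIL (3.13 ± 0.58, adjusted p = 0.0161) and Control-TMX (3.71 ± 0.62, adjusted p = 0.0109) and Cpa3 at 1 count in each group. The part of these cells in the members' values was not tested.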

How the data were processed

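Counts of reads per gene symbol were deposited by the authors, 1 table per mouse. Per the file headers they were made with featureCounts 1.6.1 over the exons of Ensembl GRCm38 release 98, with strand setting 0, without reads that had several mapping positions or overlapped more than 1 gene. Per the submitters' processing notes, the aligner was STAR (version not given in the sources used here). Each library was used as 1 sample, and groups came from the labels. P-values measure the spread between these 12 mice.

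All genes passing filterByExpr by group entered a robust quasi-likelihood fit in edgeR 4.0.16 (R 4.3.3), with TMM factors and 9 residual degrees of freedom, and p-values were adjusted by Benjamini-Hochberg over the 15743 genes. The common biological coefficient of variation was 18.3%. CPM were computed on the library totals of tested genes, scaled by TMM. The SE is the fold change over the square root of F. Per-kilobase levels use the exon length of the count tables. No 2 replicates of a group agreed within counting noise. Simulated data over 15454 genes had 100 genes changed 2-fold and 100 changed 4-fold, all drawn from genes with a mean log2 CPM over 1. Of these, edgeR recovered 75% and 96% against Control-OIL, 77% and 98% against Control-TMX, and 86% and 99% against the mean of both controls. Its false calls numbered 10, 14 and 14 in the same order. Members below that level, such as Scg3 and Isl1, were not covered by the simulation.

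The 35 members, the other lists and the motifs were chosen with earlier results of these data known. Values in every library are given for 15 members: those called in any comparison, those with an unadjusted p under 0.05 against the mean of both controls, and the 8 with the highest CPM per kilobase. Genes outside the members are named with values if they belong to a list and were called, or as markers whose level stands beside a result. Alternatives were limma-voom (limma 3.58.1), DESeq2 1.42.0 and its size factors within edgeR, a stricter filter (mean log2 CPM not under 1) and none, the fit without its robust setting, the compared groups alone, the replicate number as a block, sex read from Xist as a term, and each library left out in turn. Promoter sequences are RefSeq's on GRCm38.p6, and Ensembl identifiers and positions are on GRCm38. Proteins and single exons were not analysed here.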

Additional observations from a re-analysis of the deposited data

Results flagged for a closer look

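In 3 of the 45 sets of 4 libraries formed by the 15 members and 3 groups, 1 library lay far from the other 3 by Dixon's test. Chance gives such a value in about 1 in 20 sets. Gcg was at 45.3 CPM in Control-OIL replicate 1, with the nearest library at 23.5. Nts was at 9.08 CPM in the same library, with the nearest at 3.65. Ddc was at 75.2 CPM in EHF IKO replicate 4, with the nearest at 59.3.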

How the results depend on the processing

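No called result and no median of the members changed direction under any alternative. Values that were not called and lay near 0 did, among them the log2 fold changes of Nts against Control-OIL (-0.08 to 0.56), Gcg against Control-TMX (-0.37 to 0.18), and Pyy against Control-OIL (-0.19 to 0.05) and Control-TMX (-0.15 to 0.06). The fall of Chga was called in all 21 alternatives against Control-TMX and all 20 against the mean of both controls. Tac1 against Control-OIL was called in 11 of 21. With no filter on low counts, genes called higher and lower numbered 435 and 289 against Control-OIL, 198 and 302 against Control-TMX, 525 and 306 against the mean, and 270 and 171 between the controls. With DESeq2 they numbered 289 and 201, 114 and 168, 235 and 205, and 118 and 68 in the same order. A fit of the groups compared alone gave 56 and 56 against Control-OIL. Between the controls there were 0 higher and 5 lower with a mean log2 CPM of at least 1, 1 and 7 with limma-voom, and 25 and 13 with a sex term. Members called with no filter were 2 against Control-OIL (Chga, Tac1), 5 against Control-TMX (Chga, Chgb, Ddc, Pcsk1n, Tph1), 5 against the mean (Chga, Chgb, Ddc, Tac1, Tph1) and 3 between the controls (Chga, Nts, Sct). Against Control-OIL there were 0 in the fit of those groups alone and 2 with a sex term (Chga, Tac1). DESeq2 called 2 against the mean (Chga, Tac1) and 1 between the controls (Chga), and the sex term 1 between the controls (Chga). The replicate numbers did not pair the mice: 5 of 12 same-number pairs had a correlation of deviations over 0.1 (-0.42 to 0.42), and 7 of 24 comparisons of a library with another group were best matched by its own number. With the replicate block, 92 genes were called higher and 81 lower against Control-OIL, 32 and 40 against Control-TMX, and 77 and 71 against the mean, with 0 members against Control-OIL (Tac1 adjusted p = 0.0780) and 1 between the controls (Chga).

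With 1 library left out, genes called higher ranged from 53 to 453 against Control-OIL, 19 to 80 against Control-TMX, 55 to 310 against the mean and 0 to 44 between the controls, and genes called lower from 50 to 258, 31 to 82, 53 to 212 and 3 to 42. The counts in at least 1 direction moved by over 1.5 times without Control-OIL 1, 3 or 4 or any EHF IKO library (against Control-OIL), without Control-TMX 1, 2 or 3 or any EHF IKO library (against Control-TMX), without any EHF IKO library (against the mean), and without any of the 12 libraries (between the controls). EHF IKO 4 gave the highest count in each direction when left out, with the exception of the genes lower between the controls, highest without Control-OIL 2. Members called ranged from 0 to 1 against Control-OIL, 1 to 1 against Control-TMX, 1 to 2 against the mean (2 without Control-OIL 2, Control-TMX 4 or EHF IKO 2) and 0 to 1 between the controls (1 without Control-OIL 1 or EHF IKO 4). The members' median ranged from -0.26 to -0.06, from -0.54 to -0.30, from -0.40 to -0.17 and from 0.11 to 0.38 in the same order. Depth limits the 9 untested members and genes near 1 CPM, such as Tac1 and Rfx6.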
